A study of Mus musculus with 30 samples.

Results

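The aryl hydrocarbon receptor pathway was followed through 6 genes in mouse tail fibroblasts exposed to 8 compounds: Ahr, the receptor, Arnt, its DNA-binding partner, Ahrr and Tiparp, which act against it, and Cyp1b1 and Cyp1a1, the cytochrome P450 genes it is best known for inducing. The genes were chosen by name, as the rows whose Ensembl identifiers map to these symbols in the GENCODE M21 annotation, and make up 6 of the 29861 genes in the table. All 6 had a row, and 5 passed the filter on low values (at least 1 TPM in at least 3 libraries), which Cyp1a1 did not. TPM (transcripts scaled to a fixed total per library) is a share of the library's transcripts corrected for transcript length, so levels can be set side by side between genes.

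The cells were CCG-HTA-1, a primary tail fibroblast line from UMHet3 mice, a stock bred from a cross of several inbred strains, used at passage 4. Each group held 3 libraries of cells collected 48 hours after adding Antimycin A, Dihydrorotenone, Diphenyleneiodonium Cl, Cardamonin, BerberineA, Clofilium tosylate, AEG 3482 or Podofilox, and 6 libraries received the solvent DMSO. Antimycin A and Dihydrorotenone block mitochondrial respiration, at complex III and complex I, and Diphenyleneiodonium Cl blocks flavoenzymes. Cardamonin is a chalcone made by plants, Podofilox is a tubulin-binding plant lignan and Clofilium tosylate blocks potassium channels. All groups shared high-glucose medium without pyruvate, serum and ambient oxygen. The donor mice were 5 to 8 weeks old, except for Dihydrorotenone replicate 1, whose donors were 8 to 11 weeks old. Doses are not in the labels used here. Apart from this label, nothing says whether replicates came from separate animals, so p-values measure the spread between libraries of 1 line, which may be technical, and every compound was compared with the same 6 DMSO libraries.

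As background, AHR waits in the cytosol bound to HSP90 and the co-chaperone p23 (Ptges3). Once a ligand binds, it enters the nucleus, pairs with ARNT and binds xenobiotic response elements, whose core is GCGTG, in genes such as Cyp1a1, Cyp1b1, Ahrr and Tiparp. AHRR competes with AHR for ARNT, and TIPARP, a mono-ADP-ribosyltransferase of the PARP family, modifies AHR and lowers its activity. Many planar plant compounds are known to bind the receptor, and fibroblasts are known to express Cyp1b1 rather than Cyp1a1.

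The sequences next to the start sites show where that core lies within 250 bases before the start of the target genes. RefSeq promoter sequences of GRCm38.p6 covered 5 of the 6 genes. The stretches below are 150 bases each, read 5′ to 3′ on the gene's own strand, and are shown for the 4 target genes because their transcripts carry the comparison. Capitals mark GCGTG, or CACGC where the core lies on the opposite strand. The Ahrr, Cyp1a1 and Cyp1b1 stretches end at the base before the RefSeq start site, and the Tiparp stretch runs from 250 to 101 bases before it.
Ahrr, chr13:74292332-74292481, minus strand: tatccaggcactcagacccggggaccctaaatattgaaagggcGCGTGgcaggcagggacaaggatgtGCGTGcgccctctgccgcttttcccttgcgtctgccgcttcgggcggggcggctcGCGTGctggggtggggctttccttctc
Cyp1a1, chr9:57697463-57697612, plus strand: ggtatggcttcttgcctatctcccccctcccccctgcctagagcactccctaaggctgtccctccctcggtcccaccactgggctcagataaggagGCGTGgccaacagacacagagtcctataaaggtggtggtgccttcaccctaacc
Cyp1b1, chr17:79715062-79715211, minus strand: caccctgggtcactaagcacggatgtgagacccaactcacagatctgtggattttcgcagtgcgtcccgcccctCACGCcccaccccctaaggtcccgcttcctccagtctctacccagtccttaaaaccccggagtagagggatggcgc
Tiparp, chr3:65528197-65528346, plus strand: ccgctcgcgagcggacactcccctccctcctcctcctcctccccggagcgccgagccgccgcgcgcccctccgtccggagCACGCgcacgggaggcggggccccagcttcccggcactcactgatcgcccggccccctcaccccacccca
In the 250 bases before the start, searched on both strands, Ahrr held 3 GCGTG matches, beginning 107, 82 and 27 bases before the start, and the last of them was also a match to the longer TNGCGTG. Cyp1a1, Cyp1b1, Tiparp and Arnt held 1 GCGTG match each. Among 32817 RefSeq windows of the same length, 28.1% held GCGTG, 2.77% held 3 or more matches and 4.1% held TNGCGTG. TGACNNNGC, a short form of the antioxidant response element, matched at 2 places in the Arnt window and in none of the other 4 windows, against 10.2% of all windows. In the GENCODE M21 annotation none of the Ahrr, Cyp1a1 and Cyp1b1 stretches touches an exon, although the Cyp1a1 stretch lies inside that gene's annotated span. The Tiparp stretch touches an exon of 4931440P22Rik, a pseudogene on the opposite strand. These matches describe letters in a window and are not measured binding. Sequence outside the 250 bases was not searched, so cores lying further away would not be seen.

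The genes lie at chr12:35497974-35535038 (Ahr), chr3:95434388-95497240 (Arnt), chr13:74211118-74292331 (Ahrr), chr3:65528410-65555518 (Tiparp), chr17:79701537-79715061 (Cyp1b1) and chr9:57687928-57703824 (Cyp1a1) in GRCm38. Transcripts of other genes held in common with the gene a share of its 31-base words that was 0.0% for Cyp1b1, 0.466% for Arnt, 1.51% for Ahrr and 1.61% for Ahr. It was 4.48% for Tiparp, mostly shared with the overlapping 4931440P22Rik, and 5.52% for Cyp1a1, mostly shared with Cyp1a2. Reads of Tiparp and of this pseudogene may therefore not be fully told apart.

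The deposited values summed to between 927024 and 937134 TPM per library, with 12229 to 12700 genes at or above 1 TPM, and TPM keeps no read depth. All 7 fibroblast markers were present in every group. Their summed level ran from 4642 to 5611 TPM in DMSO, from 1431 to 2013 TPM with Cardamonin and from 2849 to 3492 TPM with AEG 3482. The 5 keratinocyte markers summed to at most 2.41 TPM in any library, with Krt5 at 0 throughout, and Myod1 of muscle was at 0. The 4 leukocyte markers summed to 50.4 to 56.8 TPM in DMSO, to 81.2 to 102 TPM with Cardamonin and to 115 to 134 TPM with Podofilox, and Cd3e was at 0 in every group but Podofilox. Only 2 of these 4 markers reached 1 TPM in any library. In bulk RNA, fewer cells of a type and less RNA per cell cannot be told apart.

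**Figure D1:**
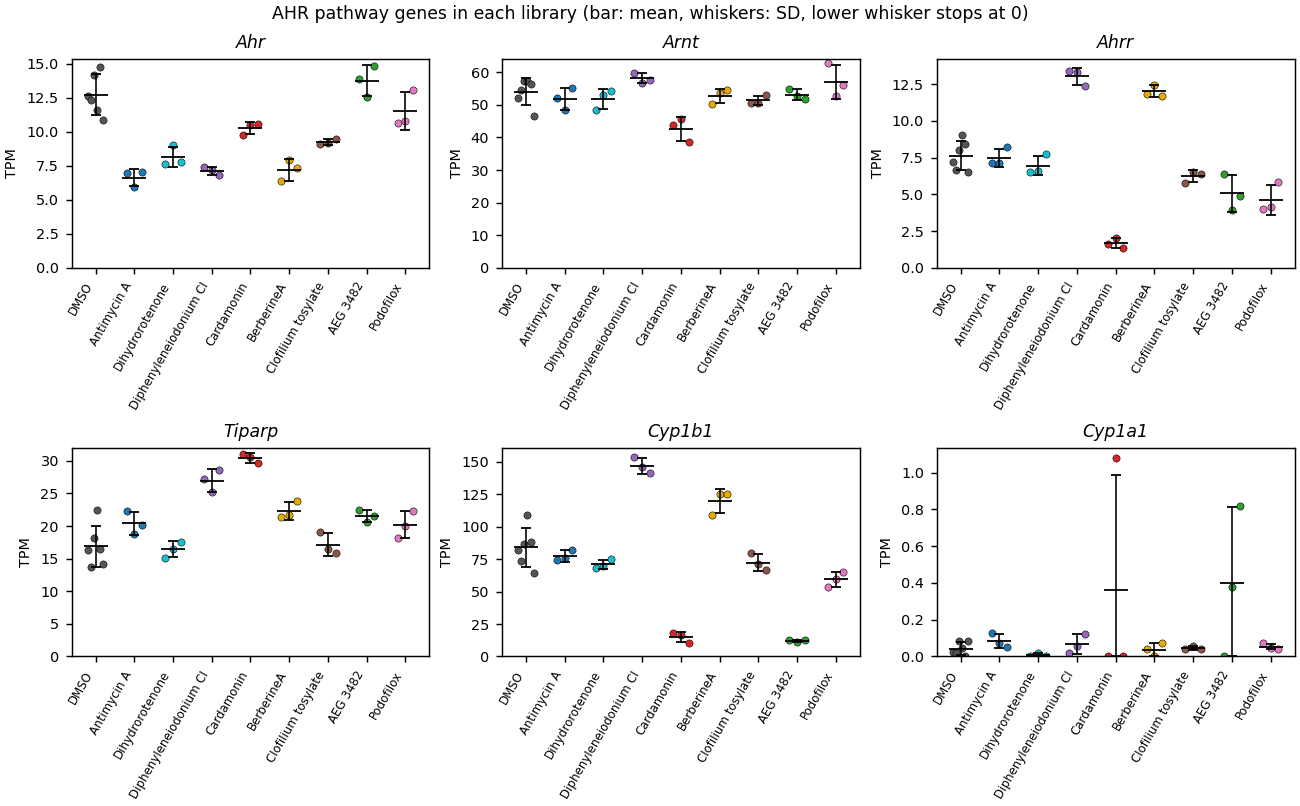
TPM (y axes, each from 0) of the 6 genes in every library of the 9 groups (x axes). Points are libraries, bars are means and whiskers are SDs, and Cyp1b1 with Cardamonin or AEG 3482 lies between 10.7 and 18.0 TPM, below all 6 DMSO libraries.

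Cyp1b1 was the most abundant member in DMSO cells, at 84.1 TPM ± 15.1 (SD, n = 6), and it moved over the widest range. It fell to 15.2 TPM ± 3.96 (SD, n = 3) with Cardamonin and to 12.1 TPM ± 0.995 with AEG 3482, and it rose to 146.9 TPM ± 6.36 with Diphenyleneiodonium Cl and to 120.0 TPM ± 9.27 with BerberineA. Ahrr moved the same way as Cyp1b1 in each of these 4 groups, whereas Tiparp rose in all 4. Ahr itself fell with 6 of the 8 compounds. Cyp1a1 stayed near 0 in nearly every library.

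The counts of members past the test have to be read against how many genes passed it in each comparison. The test was limma with Benjamini-Hochberg adjustment over the 13644 tested genes and a threshold of 0.05. With Cardamonin all 5 tested members were called, 1 higher and 4 lower, beside 70.3% of all tested genes (37.3% higher and 33.0% lower). With AEG 3482 there were 3, 1 higher and 2 lower, beside 68.1% (41.3% higher and 26.8% lower). With Podofilox there were also 3, 1 higher and 2 lower, beside 46.2% (26.2% higher and 20.0% lower). Antimycin A had 2, 1 in each direction, beside 37.3% (21.8% higher and 15.5% lower). In these 4 comparisons so much of the transcriptome was called that a called member is a common event.

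Fewer genes were called with the other compounds. Diphenyleneiodonium Cl had 4 members called, 3 higher and 1 lower, beside 25.7% of all tested genes (14.0% higher and 11.7% lower). BerberineA also had 4, 3 higher and 1 lower, beside 21.7% (12.6% higher and 9.16% lower). Clofilium tosylate had 1, lower, beside 23.4% (10.9% higher and 12.5% lower), and Dihydrorotenone had 1, lower, beside 14.4% (4.95% higher and 9.43% lower). The median log2 fold change of the 5 tested members was 0.66 with Diphenyleneiodonium Cl (all tested genes 0.02), 0.40 with BerberineA (0.02), -0.34 with Cardamonin (0.03), -0.02 with AEG 3482 (0.10), and between -0.20 and -0.06 with the other 4 compounds (all genes between -0.03 and 0.04). The members moved in opposite directions within most comparisons, so a median of 5 genes hides the split described next.

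**Figure D2:**
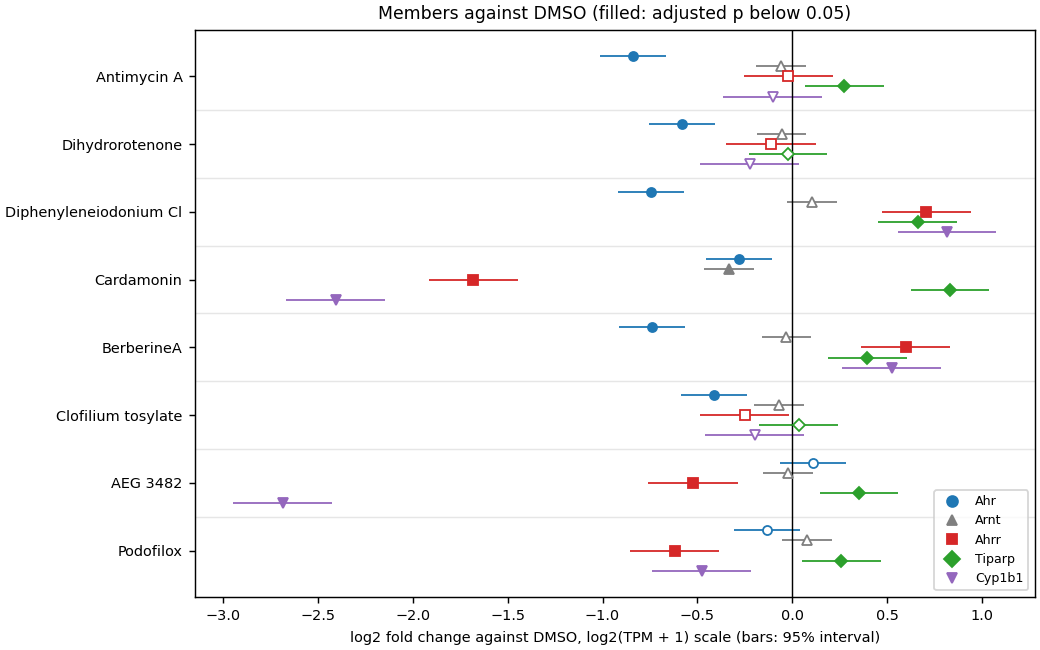
Log2 fold change against DMSO on the log2(TPM + 1) scale (x axis) of the 5 tested members for each compound (y axis). Bars are 95% intervals from limma and filled symbols are called, as for Cyp1b1 at -2.41 with Cardamonin and -2.69 with AEG 3482.

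The receptor gene Ahr lay at 10.9, 11.6, 12.3, 12.7, 14.2 and 14.8 TPM in the 6 DMSO libraries. It was lowest with Antimycin A, at 6.97, 5.93 and 7.03 TPM, and nearly as low with Diphenyleneiodonium Cl, at 7.43, 7.16 and 6.85 TPM, and with BerberineA, at 6.37, 7.91 and 7.31 TPM. All 9 of these libraries lay below every DMSO library. The log2 fold changes were -0.84 ± 0.08 (SE, adjusted p = 1.48e-08, limma), -0.75 ± 0.08 (adjusted p = 2.70e-07) and -0.74 ± 0.08 (adjusted p = 4.95e-07).

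Dihydrorotenone gave 7.66, 9.01 and 7.76 TPM of Ahr and Clofilium tosylate 9.10, 9.21 and 9.48 TPM. Cardamonin gave 9.75, 10.5 and 10.6 TPM. These groups too lay wholly below the DMSO range, with log2 fold changes of -0.58 (adjusted p = 5.06e-05), -0.41 (adjusted p = 0.000715) and -0.28 (adjusted p = 0.00504) in the limma fit. Podofilox, at 10.6, 10.8 and 13.1 TPM, and AEG 3482, at 13.9, 12.6 and 14.9 TPM, overlapped DMSO and were not called, with log2 fold changes of -0.13 (95% interval -0.31 to 0.04) and 0.11 (-0.07 to 0.28). From highest to lowest mean the order was AEG 3482, DMSO, Podofilox, Cardamonin, Clofilium tosylate, Dihydrorotenone, BerberineA, Diphenyleneiodonium Cl and Antimycin A. The library ranges of neighbours overlapped among the first 3 groups and among the last 4, and did not overlap between Podofilox, Cardamonin, Clofilium tosylate and Dihydrorotenone.

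Arnt, the obligate partner of AHR and of the hypoxia-inducible factors, was the steadiest member. It lay between 46.6 and 57.4 TPM in DMSO, with a median of 55.4 TPM, and at 43.7, 45.6 and 38.6 TPM with Cardamonin. The 3 Cardamonin libraries lay below every DMSO library, and Arnt fell by 0.34 on the log2 scale (adjusted p = 4.48e-05, limma). The other 7 group means ran from 51.4 to 58.1 TPM and none was called. With AEG 3482 the log2 fold change was -0.02, but it was -0.14 with median-ratio scaling (adjusted p = 0.0181) and -0.20 with quantile normalization (adjusted p = 0.00231), so its call depends on the scaling.

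Ahrr, the repressor that competes with AHR for ARNT, separated the compounds into higher and lower groups. DMSO libraries lay at 6.55, 6.63, 7.21, 8.02, 8.44 and 9.03 TPM. Cardamonin gave 1.65, 2.06 and 1.38 TPM, a mean 4.51 times lower than that of DMSO. No library of any other group came near those 3, and the log2 fold change was -1.68 ± 0.11 (SE, adjusted p = 1.03e-12, limma).

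Podofilox gave 3.99, 4.14 and 5.83 TPM of Ahrr and AEG 3482 6.41, 3.92 and 4.88 TPM. Both groups lay below the DMSO range and overlapped each other, with log2 fold changes of -0.62 (adjusted p = 7.23e-05) and -0.52 (adjusted p = 0.000258). In the other direction, Diphenyleneiodonium Cl gave 13.4, 13.3 and 12.4 TPM and BerberineA 11.9, 12.5 and 11.7 TPM. All 6 libraries exceeded the highest DMSO library, and Ahrr rose by 0.71 (adjusted p = 3.91e-05) and by 0.60 (adjusted p = 0.000363) in log2 units in the limma fit.

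Antimycin A, at 7.11, 7.17 and 8.20 TPM of Ahrr, lay inside the DMSO range, and Dihydrorotenone, at 6.55, 6.62 and 7.73 TPM, had 1 library just below it. Clofilium tosylate, at 5.76, 6.51 and 6.42 TPM, lay just below all 6 DMSO libraries, yet its log2 fold change of -0.25 (95% interval -0.49 to -0.02) did not pass adjustment over all genes (adjusted p = 0.118, limma). Ranked by mean, the groups ran from Diphenyleneiodonium Cl and BerberineA, which overlapped, through DMSO, Antimycin A and Dihydrorotenone, which overlapped in turn, to Clofilium tosylate, AEG 3482 and Podofilox, and last to Cardamonin, which stood apart.

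Tiparp, the other inhibitor of AHR, rose with 6 of the 8 compounds and fell with none. Its DMSO values spread widely, at 13.7, 14.2, 16.3, 16.5, 18.2 and 22.5 TPM, the highest being replicate 4. Cardamonin gave 31.1, 30.6 and 29.7 TPM and Diphenyleneiodonium Cl 27.2, 25.2 and 28.6 TPM. All 6 libraries lay above every DMSO library, and the log2 fold changes were 0.83 ± 0.10 (SE, adjusted p = 5.13e-08, limma) and 0.66 ± 0.10 (adjusted p = 1.71e-05).

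The remaining rises of Tiparp were smaller and lay within or at the edge of the DMSO range. BerberineA gave 21.4, 21.6 and 23.8 TPM (log2 fold change 0.40, adjusted p = 0.00492, limma), with 1 library above the highest DMSO library. AEG 3482 gave 22.5, 20.7 and 21.6 TPM (0.35, adjusted p = 0.00319), with none above it. The BerberineA call was lost in a fit of its own 3 libraries and DMSO alone (adjusted p = 0.0735).

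Antimycin A, at 22.3, 18.8 and 20.2 TPM of Tiparp, and Podofilox, at 18.2, 20.1 and 22.4 TPM, passed narrowly, with log2 fold changes of 0.27 (adjusted p = 0.0332, limma) and 0.26 (adjusted p = 0.0371). The Antimycin A call was lost without Antimycin A replicate 1 or 3 or DMSO replicate 1, 2 or 6, where the adjusted p ran from 0.0502 to 0.181, and with no filter (0.0797) or the 2 groups alone (adjusted p = 0.151). The Podofilox call was lost without Podofilox replicate 2 or 3 or DMSO replicate 1, 2, 5 or 6, with adjusted p from 0.0529 to 0.209, and with no filter (0.0894), quantile normalization (0.0620) or the 2 groups alone (adjusted p = 0.160). Clofilium tosylate, at 15.9 to 19.1 TPM, and Dihydrorotenone, at 15.2 to 17.6 TPM, overlapped DMSO and were not called. By mean, Cardamonin and Diphenyleneiodonium Cl each stood apart at the top, and every later neighbour overlapped the next.

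Cyp1b1 encodes a P450 that oxidises polycyclic hydrocarbons, oestradiol and retinoids and is a standard readout of AHR activity. The DMSO libraries lay at 64.4, 73.9, 82.2, 86.8, 88.2 and 109.1 TPM. Cardamonin gave 18.0, 16.9 and 10.7 TPM and AEG 3482 gave 12.7, 10.9 and 12.6 TPM, means 5.53 and 6.96 times lower than that of DMSO. The 2 groups overlapped each other and lay far below all others, with log2 fold changes of -2.41 ± 0.13 (SE, adjusted p = 5.66e-15, limma) and -2.69 ± 0.13 (adjusted p = 1.08e-15).

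Cell type markers also differed between these groups. The fibroblast sum lay wholly below the DMSO range with Cardamonin and AEG 3482, but also with Diphenyleneiodonium Cl (3893 to 4116 TPM) and BerberineA (3732 to 4248 TPM), where Cyp1b1 was higher than in DMSO. It was below that range too with Dihydrorotenone (4059 to 4609 TPM) and Clofilium tosylate (3677 to 3930 TPM), where Cyp1b1 was not called. With Podofilox it ran from 4647 to 4766 TPM, inside the DMSO range. With Antimycin A it ran from 2978 to 3396 TPM, close to AEG 3482, while Cyp1b1 stood at 74.1, 75.6 and 82.4 TPM, inside the DMSO range. The 4 melanocyte markers summed to 4.54 to 6.94 TPM in DMSO, 1.27 to 1.83 TPM with Cardamonin and 1.55 to 2.22 TPM with AEG 3482, and to 12.5 to 15.8 TPM with Diphenyleneiodonium Cl and 12.1 to 13.1 TPM with BerberineA, the same directions as Cyp1b1 and Ahrr. They were also above the DMSO range with Antimycin A (16.1 to 18.6 TPM), Dihydrorotenone (12.0 to 12.1 TPM) and Clofilium tosylate (9.71 to 14.5 TPM), where neither Cyp1b1 nor Ahrr was called. The 4 endothelial markers summed to 5.42 to 8.71 TPM in DMSO, 1.09 to 1.18 TPM with Cardamonin and 1.63 to 1.77 TPM with AEG 3482, and overlapped DMSO with Diphenyleneiodonium Cl and BerberineA. Only 2 of the 4 melanocyte markers and 1 of the 4 endothelial markers reached 1 TPM in any library. These 2 sums therefore rest mainly on few genes at low levels. The part of these marker levels in the Cyp1b1 and Ahrr values was not tested.

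Podofilox gave 53.9, 59.7 and 65.2 TPM of Cyp1b1, of which 2 lay below the DMSO range, and the gene fell by 0.48 in log2 units (adjusted p = 0.00309, limma). Diphenyleneiodonium Cl gave 153.8, 145.7 and 141.3 TPM and BerberineA gave 109.3, 125.3 and 125.5 TPM. All 6 libraries lay above the DMSO range, although the lowest BerberineA library exceeded the highest DMSO library only narrowly. The log2 fold changes were 0.82 (adjusted p = 2.31e-05) and 0.52 (adjusted p = 0.00334). Antimycin A, Clofilium tosylate (79.5, 71.0 and 66.8 TPM) and Dihydrorotenone (68.5, 69.6 and 75.0 TPM) lay inside the DMSO range and were not called, with 95% intervals of -0.36 to 0.16, -0.46 to 0.06 and -0.48 to 0.04. By mean, Diphenyleneiodonium Cl and BerberineA stood apart from each other and from the rest, DMSO, Antimycin A, Clofilium tosylate and Dihydrorotenone overlapped in turn, Podofilox stood apart on both sides, and Cardamonin and AEG 3482 came last.

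Cyp1a1, the classical induced gene of liver, was listed at 0 to 0.0868 TPM in DMSO. In 6 of the 8 compounds no library exceeded 0.127 TPM. Cardamonin gave 4.03e-06, 1.08 and 0 TPM, and AEG 3482 gave 0, 0.381 and 0.821 TPM. Above the DMSO range were 1 library with Cardamonin and 2 with AEG 3482, and 1 library of each of these groups was at 0. Antimycin A (0.127 TPM) and Diphenyleneiodonium Cl (0.124 TPM) also had 1 library each above that range. A two-sided exact permutation test of 3 against 6 libraries, which cannot give a p below 0.0238, gave 0.643 for Cardamonin and 0.167 for AEG 3482, and the lowest p adjusted over the 8 compounds was 0.508. The mean difference of 0.29 on the log2 scale with Cardamonin rested on replicate 2 and was -0.06 without it. Its neighbour Cyp1a2, with which it shares sequence, was listed at no more than 0.105 TPM in any library.

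Cyp1b1 and Ahrr went together across most of the study. Over the 9 group means the Pearson correlation of their log2 levels was 0.83, and the points share the same libraries, so this is a description. The 6 DMSO libraries stood in the same order for both genes, from replicate 6 through 2, 1, 3 and 5 to 4. AEG 3482 departed from this pairing, with Cyp1b1 as low as with Cardamonin and Ahrr near the Podofilox values. Cyp1b1 and Tiparp had a correlation of -0.31. Tiparp was highest with Cardamonin, where Cyp1b1 was far below DMSO, and next with Diphenyleneiodonium Cl, where Cyp1b1 was highest. With AEG 3482, where Cyp1b1 was lowest, no Tiparp library exceeded the DMSO range. Ahr and Cyp1b1 had a correlation of -0.64.

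**Figure D3:**
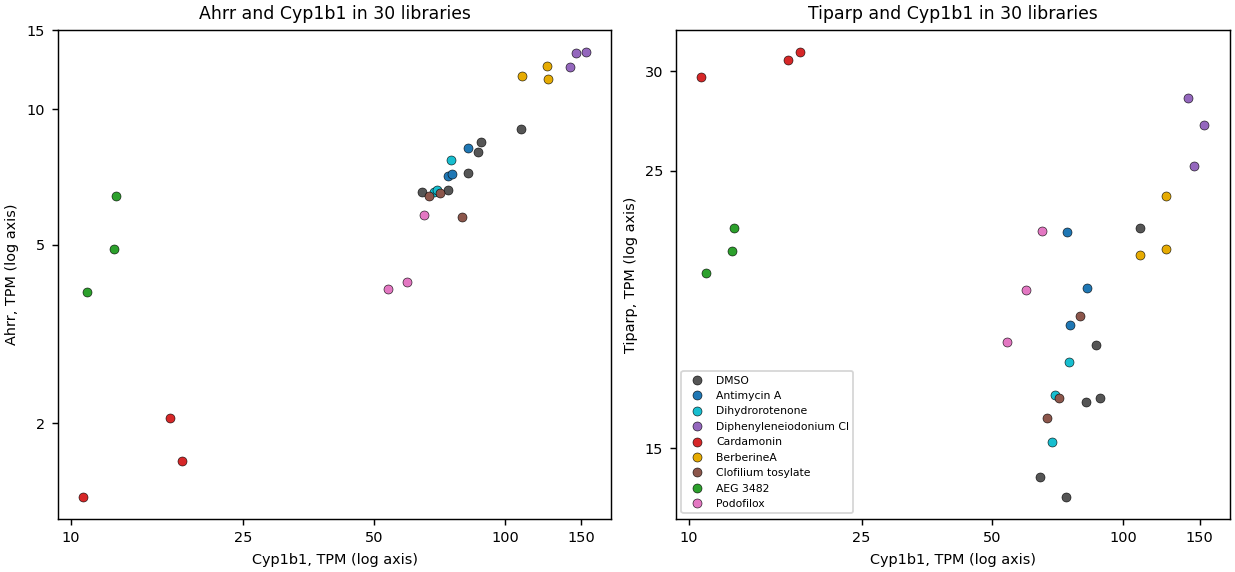
TPM on log axes of Ahrr (left) and Tiparp (right) against Cyp1b1 in all 30 libraries, coloured by group. Diphenyleneiodonium Cl lies at the upper right in both panels, while Cardamonin lies at the lower left for Ahrr and at the upper left for Tiparp.

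Direct contrasts asked whether the response to Cardamonin differed from that to AEG 3482, BerberineA and Podofilox, with doses unknown. Between Cardamonin and AEG 3482, 4 of the 5 tested members were called, beside 55.3% of all tested genes. Cyp1b1 was not among them: its difference was 0.28 in log2 units (95% interval -0.02 to 0.58, adjusted p = 0.109, limma), and this does not show that they act alike. That contrast passed with median-ratio scaling (0.35, adjusted p = 0.0354), with quantile normalization (0.36, adjusted p = 0.0312) and without Cardamonin replicate 3 (0.50, adjusted p = 0.00274), with Cardamonin the higher in each. Ahrr was lower with Cardamonin by 1.16 log2 units (95% interval of the difference -1.43 to -0.89), Ahr by 0.39 and Arnt by 0.31, and Tiparp was higher by 0.48.

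All 5 members were called between Cardamonin and BerberineA, beside 65.5% of all tested genes. The log2 differences, Cardamonin minus BerberineA, were -2.93 for Cyp1b1 (adjusted p = 2.65e-15, limma), -2.28 for Ahrr (adjusted p = 5.49e-14), -0.30 for Arnt, 0.43 for Tiparp and 0.46 for Ahr. Between Cardamonin and Podofilox 4 were called, beside 57.8%. Cyp1b1 was lower with Cardamonin by 1.93, Ahrr by 1.06 and Arnt by 0.41 log2 units, and Tiparp was higher by 0.57. Ahr was not called (-0.15, 95% interval -0.35 to 0.06). The 3 contrasts share the Cardamonin libraries.

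Of 16 further genes known as AHR targets, 13 were tested, and Cyp1a2, Epgn and Scin were below the filter. Counts in this and the later lists stand beside the share of all tested genes called. That share was 70.3% with Cardamonin, 68.1% with AEG 3482 and 46.2% with Podofilox. It ran from 14.4% (Dihydrorotenone) to 37.3% (Antimycin A) with the other compounds. At the higher shares a called list gene is a common event. With Cardamonin 7 were called higher and 4 lower, with a median log2 fold change of 0.19 (all genes 0.03), and with AEG 3482 6 were higher and 6 lower, with a median of 0.10 (all genes 0.10). The members that moved most were the detoxification genes that NRF2 is also known to induce. Aldh3a1, an aldehyde dehydrogenase, went from 29.8 to 52.3 TPM in DMSO to 455.3 to 592.7 TPM with Cardamonin and 284.3 to 364.1 TPM with AEG 3482 (log2 fold changes 3.84 and 3.12). Nqo1, a quinone reductase, went from 79.4 to 108.1 TPM to 814.8 to 959.2 TPM and 603.2 to 708.1 TPM (3.25 and 2.82). Gsta1, a glutathione transferase, went from 0.621 to 3.07 TPM to 93.3 to 118.8 TPM and 25.1 to 32.4 TPM (5.32 and 3.42). These rises stood beside the falls of Cyp1b1 and Ahrr in the same libraries.

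Elsewhere in that list the compounds differed gene by gene. Diphenyleneiodonium Cl had 3 genes higher and 3 lower, with Aldh3a1 at 86.9 to 112.2 TPM (1.39) and Nqo1 at 142.4 to 149.6 TPM (0.68). BerberineA had 3 higher and 2 lower (1 lower without BerberineA replicate 1), with Aldh3a1 at 47.5 to 66.2 TPM (0.70), overlapping the highest DMSO library. The 2 lower were Ereg, at 22.4 to 24.5 TPM against 28.8 to 35.9 TPM in DMSO (-0.47), and Ugt1a6b (-0.34). Ugt1a6b also fell with Antimycin A (-0.55), Diphenyleneiodonium Cl (-0.44) and Clofilium tosylate (-0.38, not called without its replicate 3). In DMSO it lay at 16.4 to 21.1 TPM. All libraries were below that range with Podofilox (9.51 to 10.3 TPM), Cardamonin (10.1 to 11.7 TPM), AEG 3482 (9.95 to 13.1 TPM) and Dihydrorotenone (15.2 to 16.0 TPM). Ereg also fell with Antimycin A (-0.53), Dihydrorotenone (-0.53) and Clofilium tosylate (-0.37). With Diphenyleneiodonium Cl it lay at 25.6 to 26.5 TPM, also below the DMSO range. With Podofilox Ereg stood above the DMSO range, at 49.0 to 55.0 TPM. Slc7a5, an amino acid transporter, rose from 6.83 TPM ± 1.34 (SD, n = 6) in DMSO to 31.7 TPM ± 0.647 (SD, n = 3) with Cardamonin (2.08), and also with AEG 3482 (1.31), Podofilox (1.16), Clofilium tosylate (1.06) and Antimycin A (0.89). It fell by 0.40 with Dihydrorotenone and by 0.35 with Diphenyleneiodonium Cl, calls that were lost without replicate 1 of each compound (adjusted p = 0.101 and 0.0634, limma). Selenbp1, a selenium-binding protein, fell by 1.84 with AEG 3482, by 1.51 with Cardamonin and by 1.10 with Podofilox. Serpinb2 rose by 1.66 with Podofilox, from 0.157 to 0.531 TPM in DMSO to 3.09 to 3.26 TPM. Antimycin A had 3 higher and 4 lower (5 higher without DMSO replicate 4), Podofilox 5 and 6, Clofilium tosylate 2 and 4, and Dihydrorotenone 0 and 3 (1 lower without Dihydrorotenone replicate 1). Ugt1a6a and Ugt1a6b, counted in this list, share exons and their separate values are uncertain.

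Some of the enzymes that work with microsomal P450s showed a split from Cyp1b1 as well. Por, the reductase that passes electrons to every microsomal P450, lay at 28.5 to 30.5 TPM in DMSO, at 102.4 to 118.2 TPM with Cardamonin and at 55.9 to 62.2 TPM with AEG 3482 (log2 fold changes 1.83 and 0.96). Ephx1, the microsomal epoxide hydrolase that acts on P450 products, rose by 1.80 and 2.10, and Cyb5a, cytochrome b5, by 1.53 and 1.44. Of the 5 genes, 3 were called higher and 2 lower with Cardamonin (median 1.53, all genes 0.03), and 3 higher and 0 lower with AEG 3482 (median 0.96, all genes 0.10). Among the 2 lower with Cardamonin was Cyb5r3 (log2 fold change -0.80), which moved in the same direction as Cyp1b1. With AEG 3482 the count of lower genes was 2 under both median-ratio scaling and quantile normalization. With Podofilox 4 were lower, led by Cyb5r3 (-0.60) and Ephx1 (-0.46). The other 5 compounds called at most 2 of the 5.

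Among 10 genes of the cytosolic AHR complex and its coregulators, all tested, the HSP90 genes rose with 3 compounds. Hsp90aa1, an HSP90 gene, lay at 183.0 to 236.2 TPM in DMSO, 658.5 to 768.1 TPM with Cardamonin, 427.0 to 467.1 TPM with AEG 3482 and 312.1 to 364.3 TPM with Podofilox (log2 fold changes 1.76, 1.09 and 0.67). Hsp90ab1 rose by 1.07, 0.76 and 0.19, and Ptges3 by 1.07, 0.72 and 0.21. Ptges3 fell by 0.22 with Dihydrorotenone, by 0.16 with Diphenyleneiodonium Cl and by 0.16 with BerberineA, the last not called without BerberineA replicate 3 (adjusted p = 0.112, limma). Nrip1, a nuclear receptor coregulator, fell by 0.51 with Cardamonin and by 0.72 with AEG 3482. With Cardamonin 4 genes were higher and 1 lower (median 0.18, all genes 0.03), with AEG 3482 6 and 2 (median 0.25, all genes 0.10; 4 and 2 under median-ratio scaling), and with Podofilox 4 and 0 (median 0.15, all genes 0.04). The other 5 compounds called 0 or 1 in the limma fit (1 to 3 at an unadjusted p under 0.05).

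**Figure D4:**
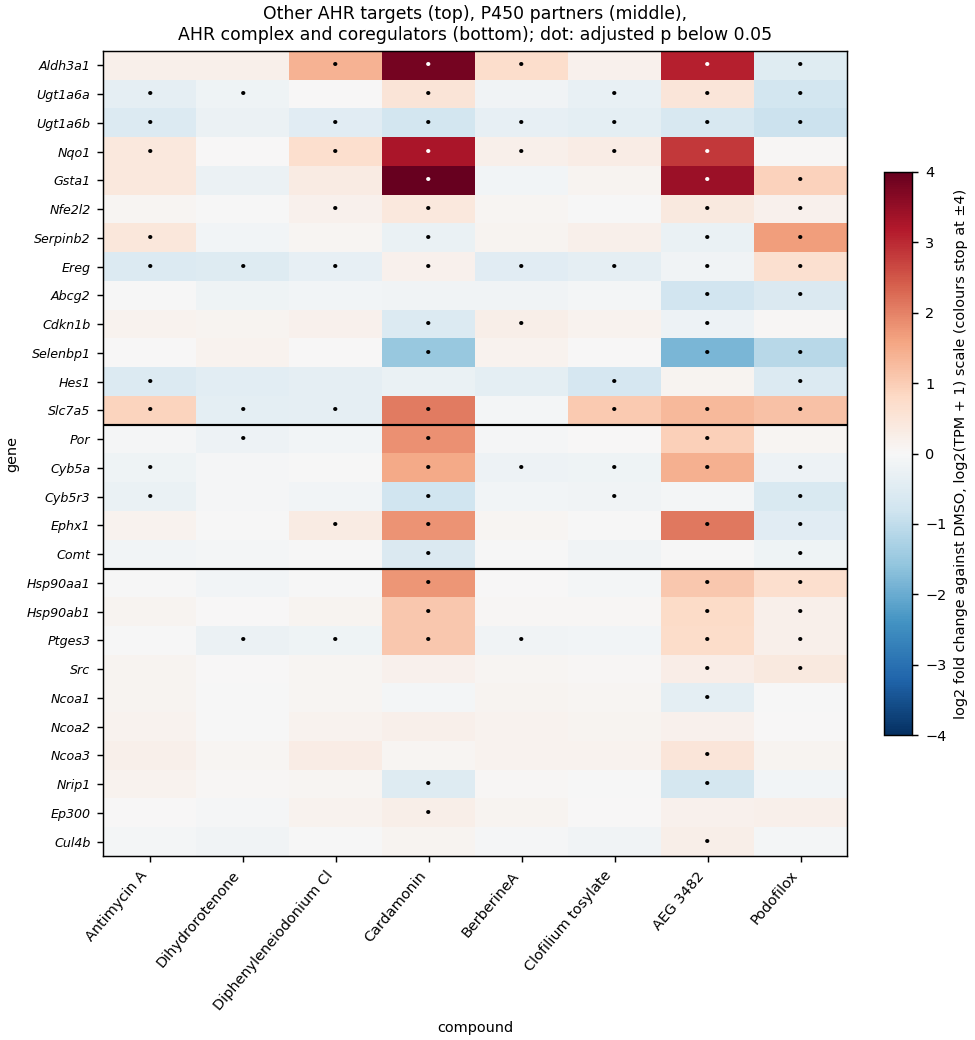
Log2 fold change against DMSO on the log2(TPM + 1) scale (colour, stopping at ±4) of the tested other AHR targets (top), P450 partners (middle) and complex and coregulator genes (bottom) for each compound (x axis). Dots mark genes called, and Aldh3a1, Nqo1 and Gsta1 are darkest with Cardamonin (3.84, 3.25 and 5.32) and AEG 3482 (3.12, 2.82 and 3.42).

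The bHLH-PAS factors, relatives of AHR and ARNT, included genes with large falls. Of 13 such genes 8 were tested, of which 5 were lower and 2 higher with Cardamonin (1 higher without Cardamonin replicate 3; median -0.77, all genes 0.03) and 4 lower and 1 higher with AEG 3482 (median -0.42, all genes 0.10). Epas1, which encodes HIF-2α, lay at 54.8 to 64.8 TPM in DMSO, 1.94 to 5.34 TPM with Cardamonin and 5.00 to 5.90 TPM with AEG 3482 (log2 fold changes -3.69 and -3.27). Sim2 fell by 2.94 and 1.86, and Hif1a by 1.07 and 0.79. Podofilox called 2 higher and 2 lower, Diphenyleneiodonium Cl 1 and 1 (both lost without its replicate 2, the lower one also in most other alternatives), Antimycin A, BerberineA and Clofilium tosylate 1 lower each (Epas1), and Dihydrorotenone 0 (0 also at an unadjusted p under 0.05 in the limma fit).

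The PARP relatives of Tiparp moved with it under some compounds and against it under others. All 13 other PARP genes were tested. With Antimycin A 8 were higher and 1 lower (median 0.56, all genes 0.03), with BerberineA 8 and 0 (0.36, all genes 0.02), with Diphenyleneiodonium Cl 7 and 0 (0.28, all genes 0.02) and with Clofilium tosylate 7 and 0 (0.25, all genes -0.00015). With Cardamonin 4 were higher and 6 lower (median -0.05), with AEG 3482 2 and 7 (-0.26), with Podofilox 2 and 5 (-0.06; 1 higher without any 1 of its replicates or without DMSO replicate 2, 4 or 5) and with Dihydrorotenone 1 and 0 (0.14). The Dihydrorotenone count was 4 and 0 under median-ratio scaling, and 2 or 3 higher without Dihydrorotenone replicate 1 or DMSO replicate 4 or 5. Parp14, an interferon-inducible member, lay at 12.5 to 22.0 TPM in DMSO, 36.2 to 36.3 TPM with Diphenyleneiodonium Cl, and 3.45 to 3.85 TPM with Cardamonin, where Tiparp was highest (log2 fold changes of Parp14 0.92 and -2.09).

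Enzymes of tryptophan and kynurenine metabolism, a route to AHR ligands, were sparse. Of 11 genes 5 passed the filter, and Ido1, Tdo2, Kmo, Kynu, Haao and Aadat did not. With Cardamonin 0 were higher and 4 lower (median -0.35, all genes 0.03). The count was 2 with no filter, quantile normalization or the replicate block, and without Cardamonin replicate 1, DMSO replicate 2 or DMSO replicate 6. In these alternatives Kyat1 and Kyat3 lost their calls. With the stricter filter it was also 2, because Ido2 and Afmid were below that filter and were not tested. With AEG 3482 0 were higher and 2 lower (median -0.09, all genes 0.10). Afmid, kynurenine formamidase, lay at 4.32 to 7.07 TPM in DMSO, 1.95 to 3.25 TPM with Cardamonin and 2.52 to 3.53 TPM with AEG 3482 (log2 fold changes -0.96 and -0.85). Podofilox called 1 lower, also Afmid (-0.45), and the other 5 compounds called 0 in the limma fit (0 to 2 at an unadjusted p under 0.05).

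The genes most like each member were taken by Pearson correlation of the 9 group means of log2(TPM + 1), which share the libraries. For Cyp1b1 these were Rbm5 (0.990), Mapk1ip1 (0.987) and Zfp651 (0.986). For Ahrr they were Scube2 (0.982), Rbl2 (0.972) and Pcmtd2 (0.970), and for Arnt they were Caskin2 (0.962), Cdh13 (0.956) and Arfgef2 (0.956). Ahr was most like Zfp963 (0.958), Ucp2 (0.945) and Zbtb48 (0.939), and Tiparp most like Urm1 (0.923), Pmaip1 (0.920) and Cyb5r4 (0.907). Rbm5 lay at 107.9 TPM in DMSO, 81.9 TPM with Cardamonin and 117.9 TPM with Diphenyleneiodonium Cl. Ucp2, a mitochondrial carrier, ran from 1.02 TPM with BerberineA to 3.54 TPM with AEG 3482.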

How the data were processed

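Gene expression was taken from 1 table of the whole series with 30 libraries. The authors quantified transcripts with kallisto 0.43.1, used FastQC and named mm10, per the submitters' processing notes, and summed to genes with tximport and used DESeq2 on their own counts, per the series' design text. The deposited values used here are TPM, which hold no read depth, so precision rests on the spread between libraries. The transcript annotation is not given in the sources used here. The series text counts 5 DMSO replicates, and the 6 libraries labelled DMSO were used.

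Of 29861 genes, 29505 matched GENCODE M21. The 13644 genes that reached 1 TPM in 3 or more libraries were fitted on log2(TPM + 1), which understates changes of low genes, with limma 3.58.1 in R 4.3.3, using 1 mean per group, an intensity trend and Benjamini-Hochberg adjustment over all tested genes, with a threshold of 0.05. The fit was tested on simulated data. Cyp1a1, below the filter, was tested by exact permutation (scipy 1.17.1). No pair of libraries had over 95% of values equal. Alternatives were a pseudocount of 0.1, no filter, a stricter filter (mean of at least 5 TPM), median-ratio scaling, quantile normalization, the 2 groups alone, a replicate block, and leaving out each library. Genes named are the 6 members, up to 4 called genes per list and compound with the largest change, and the 3 genes most correlated with each member. Slc7a5 with AEG 3482, Selenbp1 with Cardamonin and Ereg with Podofilox and Diphenyleneiodonium Cl were added after their values were seen. So was Ugt1a6b with Podofilox, Cardamonin, AEG 3482 and Dihydrorotenone. 1 gene of the complex and coregulator list is not reported here. The members and lists were chosen with earlier results of these data known.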

Additional observations from a re-analysis of the deposited data

Results flagged for a closer look

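In the 6 DMSO libraries, 4 of the 60 genes checked had a highest or lowest library set apart from the others by a gap over 0.625 of the whole range. Chance flags about 1 in 20 groups. Aldh3a1, the aldehyde dehydrogenase set beside Cyp1b1 above, stood at 52.3 TPM (52.25) in DMSO replicate 4 and at 29.8 to 36.8 TPM in the others. Replicate 4 was also the highest DMSO library for Ahrr, Tiparp and Cyp1b1. Arnt2, the neuronal relative of Arnt, stood at 0.952 TPM in replicate 5 and at 0 to 0.352 TPM in the others. Arntl2, a clock factor, stood at 7.05 TPM in replicate 3 and at 3.20 to 4.12 TPM in the others. Parp12, a relative of Tiparp, stood at 34.5 TPM in replicate 6 and at 42.0 to 45.0 TPM in the others.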

How the results depend on the processing

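Of 55 member values (5 genes in 11 comparisons), 36 were called, and 33 of these stayed called under every alternative run for them. There were 37 alternatives, of which 30 left out 1 library. Each of these 30 was run only for the comparisons that held that library, so no value met all 37. The exceptions were Tiparp with Antimycin A, BerberineA and Podofilox. Antimycin A called 1 member in place of 2 with no filter and with only the 2 groups compared, and 1 to 2 when a library was left out. Dihydrorotenone called 898 genes in place of 1963 with only the 2 groups compared, and 1233 to 2179 when a library was left out. Uncalled values near 0 changed sign. Ahrr with Antimycin A was 0.04 (0.0368) with the replicate block and -0.0792 to 0.0244 with libraries left out. Tiparp with Dihydrorotenone was 0.0109 with median-ratio scaling, 0.0081 with quantile normalization, 0.0363 with the block and -0.0754 to 0.0595 with libraries left out. Ahr with AEG 3482 was -0.0045 with median-ratio scaling. With libraries left out, Arnt with BerberineA ran from -0.0722 to 0.0023, Tiparp with Clofilium tosylate from -0.0436 to 0.116, and Cyp1a1 from -0.0068 to 0.0639 (Diphenyleneiodonium Cl), -0.0603 to 0.469 (Cardamonin), -0.0333 to 0.0170 (BerberineA) and -0.0070 to 0.0170 (Clofilium tosylate). The values with the block are differences from DMSO replicates 1, 2 and 3 alone. The cause of the other sign changes was not tested.

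Same-numbered libraries of compounds and DMSO showed little pairing. Over 24 pairs the correlation of their deviations ran from -0.0466 to 0.117, and 2 pairs exceeded 0.1. Of the 24, 11 correlated best with their own number among DMSO replicates 1, 2 and 3. Pairing between compounds was not checked. Only DMSO had replicates 4, 5 and 6, which the replicate block fits exactly. The block therefore in effect compared each compound with DMSO replicates 1, 2 and 3. It left every count of members called as it was and moved the genes called with Cardamonin from 9587 to 9235. Scaling moved the share of higher calls by over 10 percentage points with Dihydrorotenone (34.4% to 50.7% with median-ratio scaling and 47.2% with quantile normalization), AEG 3482 (60.7% to 49.4%), BerberineA (57.9% to 47.7%) and Cardamonin against AEG 3482 (40.9% to 51.2% with quantile normalization). Median-ratio scaling moved the median log2 fold change of all genes with AEG 3482 from 0.10 to -0.0079. List counts that moved by over 1.5 times were all 4 or fewer. Of 119 named values of other list genes, 97 kept their call under every alternative and 0 reversed. TPM gives no depth, so low values such as those of Cyp1a1 carry no detection limit.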
